A study of Mus musculus with 2 samples.

Results

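The phagocyte NADPH oxidase and its companion proton channel were examined in neutrophils of Jdp2 KO and Jdp2 WT mice. The 7 genes were Cybb, Cyba, Ncf1, Ncf4, Rac2, Rac1 and Hvcn1, taken by name out of 18193 genes on the array, with all 14 of their probe sets (of 45037 that are not controls). Cells were CD11b+ Ly6Clo Ly6G+ neutrophils of the bone marrow, isolated by flow cytometry from Jdp2-/- mice and from wild-type mice, both on a C57BL/6 /129/J mixed background. Total RNA was hybridised to 1 Affymetrix array per genotype, so there was no replicate, no spread between mice and no test. The labels used here do not say if the RNA came from 1 mouse or from a pool, how old the mice were, or how Jdp2 was disrupted. Values are log2 signals, and each difference is the KO array minus the WT array.

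The oxidase passes electrons from NADPH across the membrane to oxygen and makes superoxide, the start of the respiratory burst with which neutrophils attack microbes. Its catalytic core, cytochrome b558, sits in the membrane, while its organising subunits wait in the cytosol with a Rac GTPase and join the core when the cell is activated. The electron flow leaves charge behind, which the voltage-gated proton channel Hv1 balances. Loss of a core or organiser subunit causes chronic granulomatous disease in humans. The Jdp2 protein is a leucine-zipper factor related to Jun and ATF proteins, known mainly as a repressor, that binds the TRE and CRE elements of DNA.

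The promoter of Cybb is shown because Jdp2 binds DNA and this was the only oxidase promoter window with a searched motif. RefSeq windows (GRCm38.p6) of 250 bases before to 50 bases after the gene start were matched for 3 of the 7 genes, Cybb, Cyba and Ncf1. Both strands were searched for TGANTCA (a loosened TRE), TGACGTCA (CRE) and GAGGAA (a core bound by ETS factors such as PU.1), and no matches overlapped. The N stands for any base, whereas the usual TRE has C or G there. The 250 bases before the Cybb start are given 5′ to 3′ on the minus strand, the strand of the gene. The TGANTCA match is in capitals.
Cybb, chrX:9469325-9469574: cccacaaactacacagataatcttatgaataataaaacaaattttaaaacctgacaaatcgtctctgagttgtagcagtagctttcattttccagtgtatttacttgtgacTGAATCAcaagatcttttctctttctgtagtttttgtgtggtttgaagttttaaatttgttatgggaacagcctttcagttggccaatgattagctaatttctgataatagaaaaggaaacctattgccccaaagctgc
The match to TGANTCA read TGAATCA and began 139 bases before the start. With A in the middle it is not the usual TRE. A match to the ETS core on the opposite strand lay after the start, from base 10. Cyba and Ncf1 had no match. Of 32851 promoter windows, 7.81% held TGANTCA with any middle base, 1.79% the CRE letters and 28.3% the ETS core. Such matches describe letters and are not binding sites.

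The 2 arrays had medians of 5.67 (KO) and 5.65 (WT). The neutrophil label was borne out by listed markers other than Ly6g, a sort marker that had no probe set annotated to it alone. One of them, Itgam, encodes CD11b, also a sort marker, so it is not independent of the sort. All 11 neutrophil genes with a probe set read at least 10.7 on the KO array and at least 11.1 on the WT array. Itgam was the weakest on both. None of the 11 differed 2-fold. Jdp2 itself read 12.38 on the KO array and 11.997 on the WT array with its stronger probe set. It read 5.40 and 5.24, below the array medians, with the other. The targeted gene therefore does not check the labels. Where these probes lie relative to the disrupted sequence is unknown, and probes that lie elsewhere in the gene are uninformative, so every direction here is that of the library labelled KO against the library labelled WT.

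The transcripts of the membrane core read slightly lower on the array labelled KO. Cybb encodes gp91phox, the catalytic subunit that carries the heme groups and binds NADPH. Its probe set with the highest signal (1436778_at) read 13.45 on the KO array and 13.67 on the WT array, a difference of -0.22, which put KO at 85.8% of WT on the linear scale. A second probe set designed from the same sequence record (1436779_at) read 12.70 on the KO array and 12.76 on the WT array, a difference of -0.06. The probe set from the RefSeq transcript (1422978_at) read 11.92 on the KO array and 12.33 on the WT array, a difference of -0.41. All 3 Cybb probe sets were lower on the KO array, but the size of the difference varied between them from 4.04% to 24.7% lower. Cyba encodes p22phox, the partner that stabilises gp91phox and docks the cytosolic subunits. Its only probe set (1454268_a_at) read 13.12 on the KO array and 13.30 on the WT array, a difference of -0.18.

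Among the cytosolic subunits, Ncf1 read lower on the KO array with each of its 3 probe sets. It encodes p47phox, the organiser whose phosphorylation opens it to bind p22phox. Probe set 1456772_at read 12.93 on the KO array and 13.16 on the WT array, a difference of -0.23. Probe set 1451767_at read 11.93 on the KO array and 12.30 on the WT array, a difference of -0.38, and 1425609_at read 9.93 on the KO array and 10.29 on the WT array, a difference of -0.37. The last pair came from 1 sequence record, so they are not independent, and across all 3 the mean difference was -0.32 with a spread between probe sets of 0.08 (SD). That SD covers probes on shared RNA and says nothing of mice. Ncf4 encodes p40phox, which binds a phosphoinositide of the phagosome membrane. Its single probe set (1418465_at) read 12.63 on the KO array and 12.75 on the WT array, a difference of -0.11.

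The Rac GTPases complete the active complex when loaded with GTP, and their transcripts differed little between the arrays. Rac2 is the form found mainly in blood cells, and Rac1 is made in most cells. The Rac2 probe set with the higher signal (1417620_at) read 13.18 on the KO array and 13.32 on the WT array, a difference of -0.13. Another Rac2 probe set (1440208_at), also strong, pointed the other way, at 12.62 on the KO array and 12.41 on the WT array, a difference of 0.20. The direction for Rac2 thus depends on the probe set, and the mean of both was 0.04. For Rac1, probe set 1451086_s_at read 12.51 on the KO array and 12.60 on the WT array, a difference of -0.10. Probe set 1423734_at, from the same sequence record, read 12.48 on the KO array and 12.56 on the WT array, a difference of -0.07. The remaining Rac1 probe set (1437674_at) read 2.79 on the KO array and 2.75 on the WT array, below both array medians, and was the only one of the 14 that did not pass the level filter.

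Hvcn1, which encodes the proton channel Hv1, had the most negative difference of the 7 genes when each was taken by its strongest probe set. Its only probe set (1424032_at) read 9.72 on the KO array and 10.06 on the WT array, a difference of -0.35, which put KO at 78.5% of WT on the linear scale. There was no further Hvcn1 probe set against which to set this value.

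**Figure D1:**
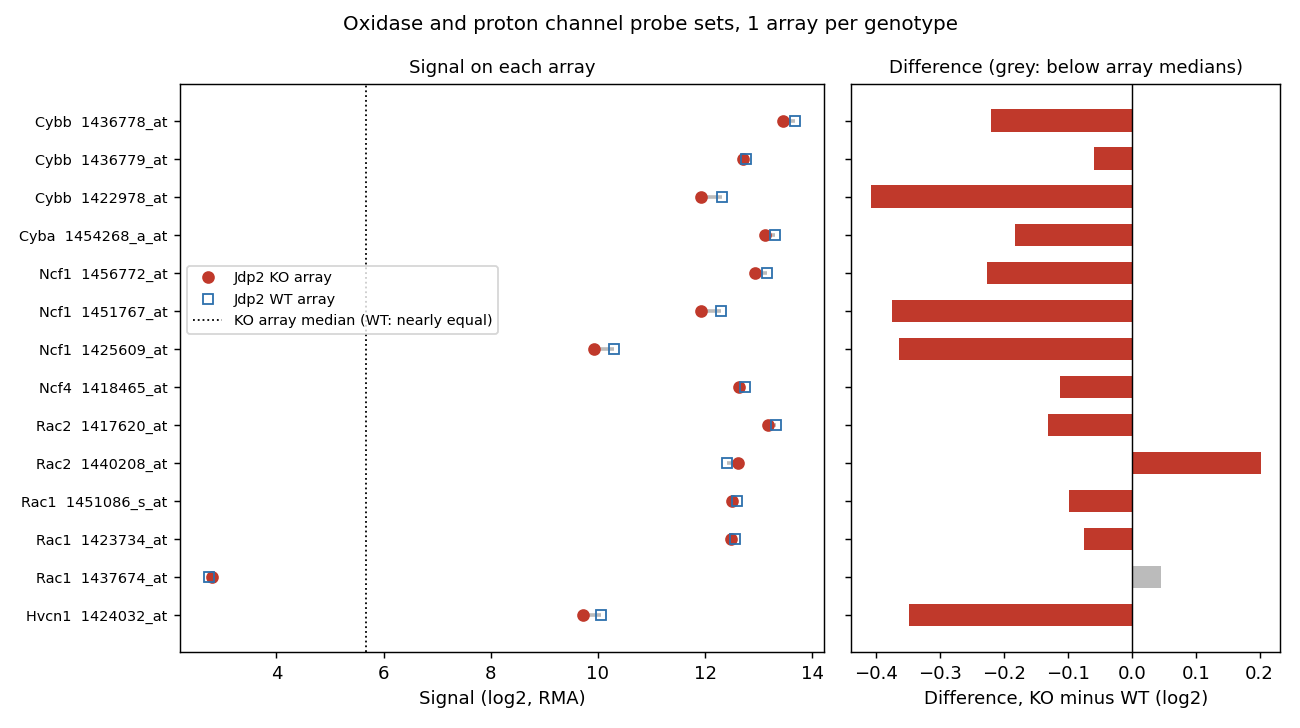
Log2 signal of each of the 14 probe sets on the Jdp2 KO array (filled circles) and the Jdp2 WT array (open squares), left, and the KO minus WT difference, right, with 1 array per genotype and therefore no error bars. Bars run from -0.41 for a Cybb probe set to 0.20 for a Rac2 probe set, and 12 of 14 lie below 0. The grey bar is the Rac1 probe set under the array medians.

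Set beside the other genes, these differences were small, but several lay toward the lower end of genes with high signal. For this comparison each gene took the values of its strongest probe set, by the mean of both arrays, and a gene passed when the higher of its values reached that array's median, which left 11168 genes. None of the 7 oxidase genes was 2-fold apart, against a background of 5.39% of all genes that passed (3.06% higher and 2.33% lower on the KO array). All 7 had a difference below 0, as did 55.1% of all genes that passed, and their median was -0.18 against -0.04 over all genes. Because differences narrow as signal grows, the 3314 genes with a mean of at least 9.89, the Hvcn1 mean, were also used. This bound was set after the values were seen. Hvcn1, the weakest oxidase gene, sat at the bound, so it was compared only with genes of equal or higher signal. The other oxidase genes were compared with weaker genes too. The set is therefore not matched in signal to each gene. Of these genes 58.0% lay below 0 and 0.543% were 2-fold apart. Their median was -0.03 and the range between the quartiles ran from -0.17 to 0.10.

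Hvcn1 had 6.79% of these high-signal genes below it, Ncf1 had 17.0% and Cybb 18.0%. For Cyba the share was 22.9%, for Rac2 31.1%, for Ncf4 34.7% and for Rac1 37.4%. Hvcn1, Ncf1, Cybb and Cyba thus lay below the lower quartile of high-signal genes, and Rac2, Ncf4 and Rac1 lay above it. In 1012 genes with at least 2 probe sets at this signal, the probe sets of a gene differed from each other by a median of 0.15 (the range of their differences). The differences of Ncf4, Rac2 and Rac1 were smaller than this median, and those of Cyba, Cybb, Ncf1 and Hvcn1 were larger. At a high percentile of the 1012 genes the range was 0.36, wider than the difference of any oxidase gene by its strongest probe set. Weaker probe sets of Cybb (-0.41) and Ncf1 (-0.38 and -0.37) differed by more. A range between probe sets is also not the same measure as a single KO minus WT difference. The probe sets of Cybb ranged over 0.35, more than its difference, and those of Ncf1 over 0.15, less than its difference. Cyba and Hvcn1 had 1 probe set each. A difference above the median range thus does not set a gene apart from the spread between probe sets. Signals close to the top of the scale, where the array maxima were 14.56 (KO) and 14.54 (WT), can be compressed, which understates differences.

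**Figure D2:**
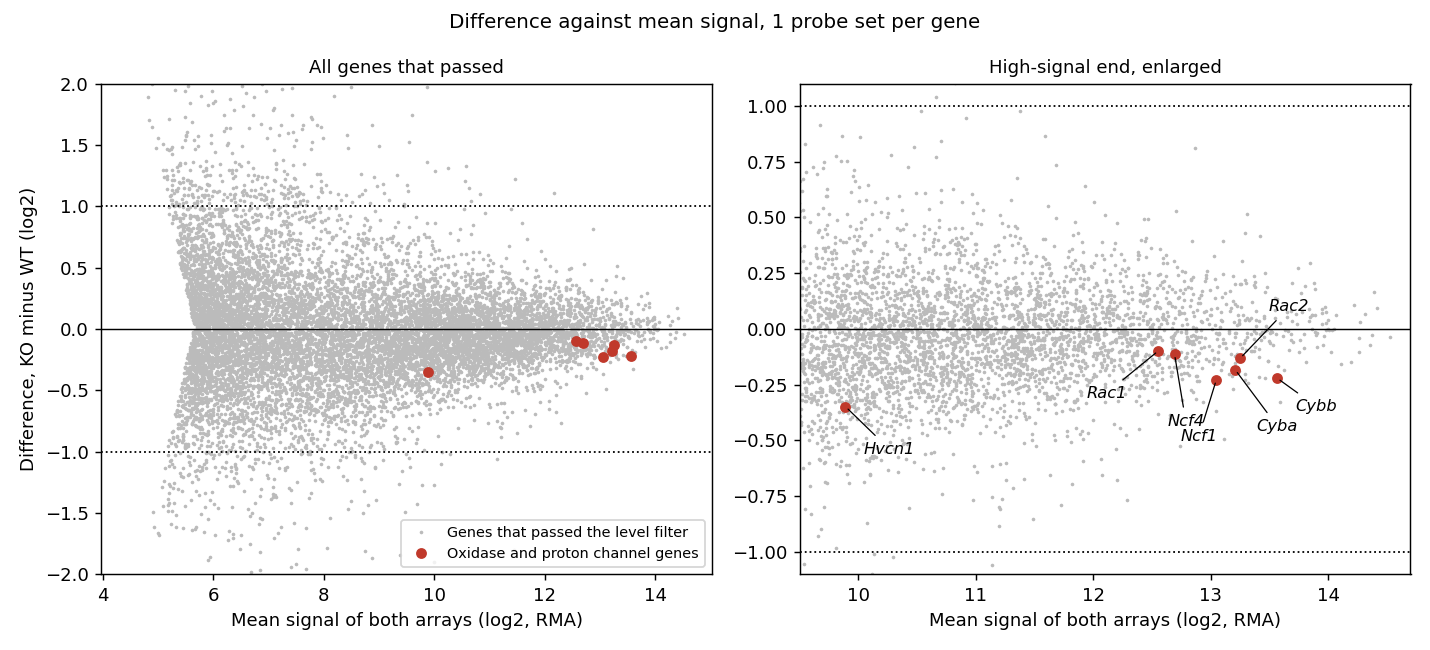
KO minus WT difference against the mean log2 signal of both arrays for the genes that passed (grey, 1 point per gene, 49 genes beyond 2 in either direction not drawn) and for the 7 oxidase and proton channel genes (red), with the high-signal end enlarged at right. Dotted lines mark 2-fold. The 7 genes lie below 0, from -0.35 for Hvcn1 to -0.10 for Rac1, within the cloud of genes of like signal.

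Genes that act around the oxidase mostly differed by similar small amounts. Over 7 pathway lists together, 46 of 59 genes that passed had a difference below 0 (78.0%, beside 55.1% of all genes), with a median of -0.13, 2 genes at least 2-fold higher and 1 at least 2-fold lower. The lists were chosen with earlier results of these arrays known. Of the oxidase partners and relatives, 5 passed and all 5 lay below 0. Cybc1, whose product (Eros) is needed for gp91phox protein to accumulate, read 9.46 on the KO array and 9.98 on the WT array, a difference of -0.53. Rac3, a GTPase close to Rac1, differed by -0.52 but read only 5.49 on the KO array and 6.01 on the WT array. Nox4, an oxidase mainly of other tissues, differed by -0.15.

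Proteins that switch Rac on and off showed no common direction, with 6 of 11 below 0 (beside 55.1% of all genes) and a median of -0.03. Vav2, a guanine nucleotide exchange factor, read 6.30 on the KO array and 4.73 on the WT array, a difference of 1.58. That comes to 1.57-fold when the WT value, which lies under its array median, is raised to it. Arhgap25, a GTPase-activating protein for Rac, differed by -0.22 and the exchange factor Tiam1 by -0.16.

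Of the kinases and lipid enzymes that signal to the oxidase, 12 of 14 lay below 0, beside 55.1% of all genes. Their median was -0.12. None was 2-fold apart, beside 5.39% of all genes and 0.543% of high-signal genes. Pla2g4a, encoding the phospholipase that releases arachidonic acid, read 8.69 on the KO array and 9.08 on the WT array, a difference of -0.39. Syk, a kinase downstream of Fc receptors and integrins, differed by -0.37, although its 4 probe sets ran from -0.59 to 0.22. Above 0 were Prkca, encoding a protein kinase C, at 0.58 (6.29 on the KO array and 5.71 on the WT array), and Akt1, at 0.04 and named after its value was seen. The 3 Akt1 probe sets that passed ran from -0.34 to 0.04. Prkcd and Prkcb, the isoforms best known for phosphorylating p47phox and named after their values were seen, differed by -0.36 and -0.11.

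Genes listed for the supply of NADPH, the fuel of the oxidase, were below 0 in 6 of 6 cases that passed, beside 55.1% of all genes. Their median was -0.20. G6pdx had no probe set annotated to it alone, and Me1 did not pass. Me2 differed by -0.38, with probe sets from -0.82 to 0.19. It encodes a mitochondrial malic enzyme that works mainly with NAD, so its place among the NADPH genes is loose. The pentose phosphate genes Pgls and Pgd differed by -0.35 and -0.20, and the 4 probe sets of Pgd all lay between -0.31 and -0.17. Of the genes for charge and pH, 8 of 9 lay below 0, with a median of -0.29. Car2, encoding carbonic anhydrase 2, read 6.43 on the KO array and 7.72 on the WT array, a difference of -1.29. Clcn3, a chloride-proton exchanger, differed by -0.51, with probe sets from -0.51 to 0.13. Kcnn4, a calcium-activated potassium channel, differed by 0.80, but its probe sets ran from -0.68 to 0.80.

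Genes that handle superoxide and peroxide were divided, with 4 of 7 below 0 (beside 55.1% of all genes) and a median of -0.09. Mpo, whose product turns hydrogen peroxide into hypochlorous acid, stood far from the rest at 11.02 on the KO array and 5.93 on the WT array, a difference of 5.09. Cat, encoding catalase, read 9.73 on the KO array and 9.06 on the WT array, a difference of 0.68, and its other probe set was also above 0, at 0.43. Gpx4, a glutathione peroxidase for lipids, differed by -0.20. Of the transcription factors known to act on oxidase genes, 5 of 7 lay below 0, beside 55.1% of all genes. Their median was -0.13. Cebpa differed by -0.35, Irf1 by -0.29 and Elf1 by 0.14. Spi1, which encodes PU.1 and is named after its value was seen, differed by -0.14.

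**Figure D3:**
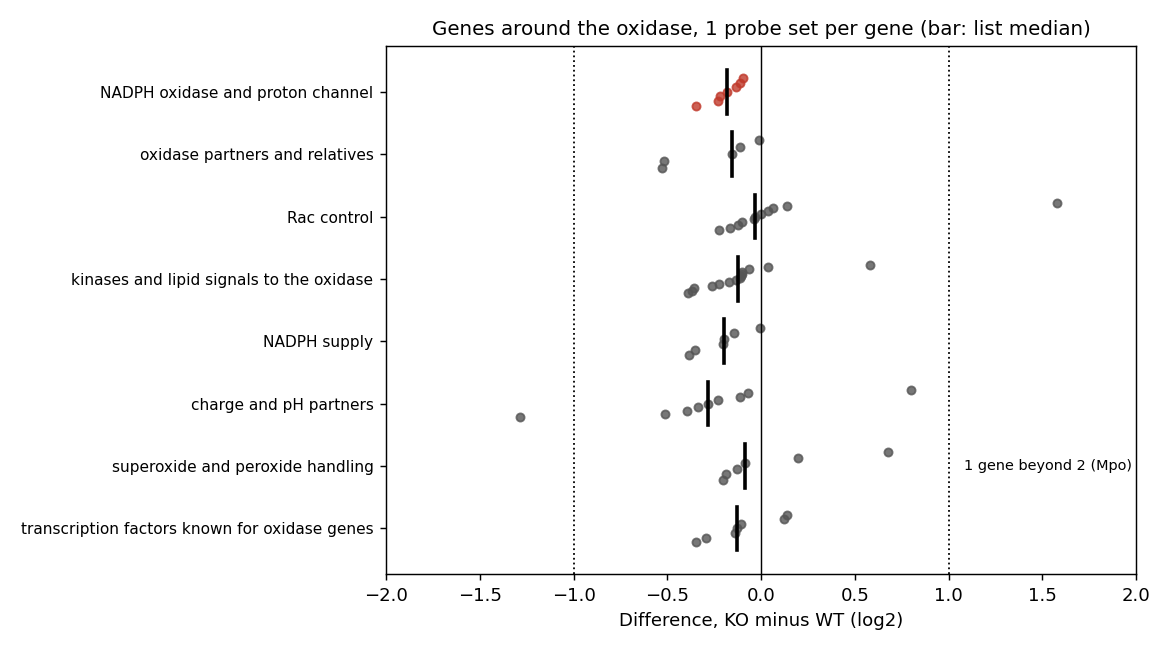
KO minus WT log2 difference of each gene that passed, by list (points, 1 probe set per gene), with the list median as a black bar and dotted lines at 2-fold. The 7 oxidase genes (red) sit close together around -0.18, while Vav2 (1.58), Car2 (-1.29) and Mpo (5.09, noted at the margin) lie past 2-fold.

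Markers of other cells differed between the same arrays. Over all genes that passed, 3.06% were at least 2-fold higher on the KO array and 55.1% lay below 0. Monocytes and macrophages, which also make the oxidase, had 12 listed genes that passed, of which 8 were at least 2-fold higher on the KO array and 11 lay above 0. With WT values below the array median set to it, 5 of the 8 stayed at least 2-fold higher, and C1qc, C1qa and Ms4a6c did not. Their summed linear signal was 28400 on the KO array and 26800 on the WT array, mostly from Lyz2 (14.31 on the KO array and 14.39 on the WT array), which neutrophils make too. The weakest of the 12 on the KO array was Cx3cr1, at 5.90 against 5.64 on the WT array, and the weakest on the WT array was Ms4a6c, at 4.78 there and 6.47 on the KO array. All 4 promyelocyte granule genes were at least 2-fold higher, with a summed linear signal of 3220 on the KO array and 152 on the WT array. Of 5 platelet genes, 3 were at least 2-fold higher, with sums of 3260 on the KO array and 1100 on the WT array. Eosinophils also carry the oxidase. Of their 5 listed genes 2 passed and both lay above 0: Siglecf read 8.73 on the KO array and 8.30 on the WT array, and Ccr3 read 5.90 on the KO array and 4.76 on the WT array, or 1.19-fold with the WT value raised to the array median. The other 3, with Epx at 4.13 on the KO array and 4.07 on the WT array, stayed under the array medians. None of the erythroid genes passed the level filter. By the strongest probe set, none of the 2 B cell and 3 T and NK cell genes that passed was 2-fold apart. The B cell gene Ighm differed by -0.93, with its 3 passing probe sets from -1.45 to 0.065. The part of these cells in the oxidase values was not tested. In such bulk RNA, fewer cells of a type and less RNA per cell cannot be told apart.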

How the data were processed

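The authors summarised each probe set with RMA, as the submitters' processing notes name it, and deposited log2 values. No version or single step of RMA is named there. After sorting, the columns differed by at most 0.117, so they had been brought to nearly 1 distribution. Of 45101 probe sets, 64 were controls and were left out. Of the rest, 34945 had 1 gene in the platform annotation, 932 had several genes and stayed without a name here, and 9160 had none. Symbols were updated by Entrez identifier against a GRCm38.p6 gene table. Listed genes without such a probe set were not analysed here.

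From these values the KO minus WT difference was computed for every probe set (Python 3.11.15, pandas 2.3.3), with 1 array per group and no test. The size rule was a log2 difference of at least 1, which is 2-fold. Named genes were all members, Jdp2, and from each pathway list the genes past 2-fold and the 3 largest absolute differences. The members and lists were chosen with earlier results of these data known. The gene summary was tested on simulated data. The alternatives tried were array centring, dropping the level filter, raising it to the 75th percentile, quantile normalisation, loess (span 0.3), and 3 other ways of summarising probe sets. Precision is limited by having only 2 arrays.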

Additional observations from a re-analysis of the deposited data

How the results depend on the processing

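Over 8 other settings, there were 55 differences of single oxidase genes. Many could not move: the level filter does not alter a gene's difference, nor do probe set summaries where a gene has 1 probe set. Of the 55, 53 stayed below 0, and none was 2-fold apart. The exception was Rac2, at 0.0352 both when all Rac2 probe sets were averaged and with the median of those that passed, because its 2 probe sets point in opposite directions. With those settings 6 of 7 oxidase genes lay below 0, and 6 of 6 did among probe sets without the suffixes _s_at, _x_at or _a_at, which leave Cyba without a value. The median of the oxidase genes ran from -0.21 (loess) to -0.18 (probe sets without those suffixes). Loess also brought the share of all genes below 0 to 50.7%, against 55.1%. Genes at least 2-fold apart numbered 602 and came to 197 (110 higher, 87 lower) with the 75th percentile filter, which tests fewer genes, and to 354 (183 higher, 171 lower) with the mean of all probe sets. No paired analysis was possible because each genotype had 1 array. With 1 array per genotype, differences of this size cannot be set against the spread between mice.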
